A study of Mus musculus with 4 samples.

Results

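Chemokine ligand genes were examined in ATAC-seq data from old and young mouse bone mesenchymal stem cells (MSCs). All protein-coding genes whose symbol is Ccl or Cxcl followed by digits were taken, together with Cx3cl1 and Xcl1 and without Cxcl12. Peaks on autosomes that overlapped such a gene, or lay within 5 kb upstream of its start, were assigned to it. The rule matched 36 genes, and 22 of them had at least 1 peak. They held 53 of the 117282 peaks of the common peak list, on the mouse build mm10 (GRCm38). A limit of 2 kb would have taken 44 peaks and a limit of 10 kb 68.

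ATAC-seq uses a transposase that inserts adapters into open DNA, so the density of fragments at a site measures its accessibility. There were 2 samples of old MSCs, from mice of 18 to 22 months, and 2 samples of young MSCs, from mice of 3 to 5 months, all grown solely at 2% O2. The labels name no genetic change or drug in either group. The study's methods, written for its oxygen comparison, describe wild-type male C57BL/6N mice of 3 to 5 months. They describe MSCs taken from the endosteal niche of the limb bones, and name no mice of 18 to 22 months. The labels do not say whether a sample came from a single animal or from a pool, so p-values measure the spread between these samples.

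Chemokines are small secreted proteins that attract leukocytes through receptors of the G-protein-coupled family. They are grouped by the spacing of their conserved cysteines into CC (Ccl), CXC (Cxcl), CX3C and XC ligands, and most of their genes arose by local duplication and stand in clusters. In bone marrow, stromal cells secrete chemokines such as Ccl2 and Cxcl1, which guide monocytes and neutrophils, and NF-kB is a known regulator of many inflammatory chemokine genes.

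The promoters of the neutrophil attractants Cxcl1, Cxcl2 and Cxcl3, and of the interferon-inducible T-cell attractant Cxcl10, lay under a peak and held a match to the NF-kB consensus. They are shown with the promoter of Ccl20, a ligand for Ccr6, which held such a match but lay under no peak. Each run is the 250 bases before the RefSeq start (GRCm38.p6), read 5′ to 3′ along the gene's own strand, and the capitals mark NF-kB matches.
Cxcl1, chr5:90890995-90891244, plus strand: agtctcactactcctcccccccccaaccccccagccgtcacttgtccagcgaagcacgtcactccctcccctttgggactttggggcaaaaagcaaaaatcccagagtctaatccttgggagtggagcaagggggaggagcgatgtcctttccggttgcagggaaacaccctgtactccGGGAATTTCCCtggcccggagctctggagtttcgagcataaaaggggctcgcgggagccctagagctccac
Cxcl2, chr5:90903649-90903898, plus strand: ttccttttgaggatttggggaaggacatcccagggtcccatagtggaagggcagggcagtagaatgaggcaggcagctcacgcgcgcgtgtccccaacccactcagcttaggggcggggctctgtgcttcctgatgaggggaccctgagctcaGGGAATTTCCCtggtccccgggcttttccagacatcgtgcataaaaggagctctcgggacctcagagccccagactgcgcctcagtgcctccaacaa
Cxcl3, chr5:90785851-90786100, plus strand: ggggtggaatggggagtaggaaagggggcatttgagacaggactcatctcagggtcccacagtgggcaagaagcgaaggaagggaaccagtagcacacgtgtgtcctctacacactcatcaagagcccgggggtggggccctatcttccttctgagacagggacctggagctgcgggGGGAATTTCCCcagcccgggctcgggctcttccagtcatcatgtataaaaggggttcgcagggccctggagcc
Cxcl10, chr5:92348890-92349139, minus strand: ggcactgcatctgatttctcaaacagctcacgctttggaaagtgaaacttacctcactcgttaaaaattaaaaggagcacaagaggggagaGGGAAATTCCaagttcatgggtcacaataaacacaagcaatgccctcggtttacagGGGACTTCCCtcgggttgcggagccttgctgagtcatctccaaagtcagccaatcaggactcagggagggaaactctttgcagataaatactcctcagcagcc
Ccl20, chr1:83116516-83116765, plus strand: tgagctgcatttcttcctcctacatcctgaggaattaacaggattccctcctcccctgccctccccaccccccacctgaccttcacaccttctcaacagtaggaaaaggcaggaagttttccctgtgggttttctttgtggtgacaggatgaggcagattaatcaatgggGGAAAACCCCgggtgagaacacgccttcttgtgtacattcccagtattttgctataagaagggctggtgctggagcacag
The match in Cxcl1, Cxcl2 and Cxcl3 was the same string of letters. It was counted as 2 overlapping matches, and it began 71, 97 and 73 bases before the start.

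A second pair differed in CpG content, and here the capitals mark CpG dinucleotides. Cxcl14 encodes a CXC ligand made by many stromal and epithelial cells, and its start-site peak was the one with the largest negative fold change of all the start-site peaks. Ccl3 encodes a macrophage-derived inflammatory ligand and had no peak.
Cxcl14, chr13:56296552-56296801, minus strand: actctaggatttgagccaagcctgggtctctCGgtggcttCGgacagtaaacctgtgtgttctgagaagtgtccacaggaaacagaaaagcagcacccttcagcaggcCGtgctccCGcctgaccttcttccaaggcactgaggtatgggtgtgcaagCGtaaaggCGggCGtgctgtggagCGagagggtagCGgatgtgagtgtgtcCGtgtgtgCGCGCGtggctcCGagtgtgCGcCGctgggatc
Ccl3, chr11:83649379-83649628, minus strand: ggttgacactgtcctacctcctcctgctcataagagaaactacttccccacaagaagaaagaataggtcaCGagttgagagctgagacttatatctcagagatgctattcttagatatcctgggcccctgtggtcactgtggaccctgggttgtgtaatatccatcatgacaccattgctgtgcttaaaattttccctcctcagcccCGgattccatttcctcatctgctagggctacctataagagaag
The printed stretch held 16 CpG dinucleotides for Cxcl14 and 2 for Ccl3.

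RefSeq promoter windows, from 250 bases before the start to 50 after it, were matched for 25 of the 36 genes. Windows of Cxcl16, Ccl2, Ccl7, Ccl11, Ccl5, Ccl4, Ccl21b, Cxcl5, Ccl26, Ccl24 and Cxcl17 were not used here. Where a gene had several RefSeq starts, the one nearest a coding start was taken. For Ccl27a and Ccl25 a peak lay over another of their RefSeq starts and not over the one taken. A peak touched 8 of the 25 windows. The NF-kB consensus was found in 5 of these 8 windows (Ccl9, Cxcl1, Cxcl2, Cxcl3 and Cxcl10) and in 2 of the 17 without a peak (Ccl20 and Ccl27a), against 4.57% of the 31396 autosomal windows of the RefSeq table. Cxcl1, Cxcl2 and Cxcl3 lie in 1 cluster and share the same match, so these windows are not independent. The 4.57% covers windows with and without a peak, and a link of motif and peak was not tested. All motifs were searched on both strands, and a match is only a description of the letters. The AP-1 motif TGANTCA was in 3 windows with a peak and 3 without (7.84% of all windows), the ISRE-type motif, a GAAA run repeated after 2 bases, in 2 and 1 (3.46%), the STAT-type motif TTCNNNGAA in 1 and 1 (8.35%) and the TATA box TATAAA in 4 and 5 (13.6%). The Cxcl10 window held 2 NF-kB matches, 1 AP-1 match and 1 ISRE-type match. The median GC content was 59.7% in the 8 windows with a peak, 51.7% in the 17 without and 53.0% over all windows. The median number of CpG dinucleotides was 10, 3 and 7. It ranged from 2 to 22 in the windows with a peak and from 1 to 10 in those without, so the ranges overlapped.

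The deposited values were taken as counts per library total, scaled to 10000000, and were not divided by peak width. The scale of 10000000 was assumed, since the values give only the step of 1 count. Under it the libraries held between 28259470 and 32559794 counts. The share of counts inside peaks was then 43.8% and 50.3% in the old samples and 57.5% and 62.9% in the young samples. For tests, values were divided by relative log expression (RLE) factors, which set the typical peak equal between samples, and RLE-scaled values are given unless stated. A value per kb of peak width was used to compare levels between peaks. The peaks of chromosome 11, where the Ccl2 to Ccl1 cluster, the Ccl5 to Ccl4 cluster and Cxcl16 lie, had a median log2 difference from the young mean of 0.18 in old replicate 2 and 0.02 in old replicate 1. The medians of the other 18 autosomes lay between -0.09 and 0.09 in old replicate 2. As a check of the cell label, all 9 MSC marker genes (Pdgfra, Ly6a, Thy1, Nt5e, Eng, Prrx1, Twist1, Col1a1 and Lepr) had a start-site peak. The RLE-scaled values of their peaks summed to 2715 and 3439 in the old samples and 2663 and 2740 in the young samples, so old replicate 2 stood above the rest. Of their 29 peaks, 7 were higher in old MSCs (background 7.49%) and 1 lower (background 8.87%) at an unadjusted limma p under 0.05. Both old sums lay above both young sums for Pdgfra (565 and 706 against 503 and 448), Nt5e, Eng and Lepr. For Ly6a, Thy1, Prrx1, Twist1 and Col1a1 the groups overlapped. Of 10 blood and macrophage markers, 7 had a peak and 5 a start-site peak, while Adgre1, Tyrobp and Cd3e had none. The summed RLE-scaled values of the blood markers were 895 and 1090 in the old samples and 1027 and 948 in the young samples, so the groups overlapped. The 5 endothelial markers each had a peak, and their summed values lay between 497 and 500.4 in all samples, but single markers differed in sign. Tek summed to 89.1 and 76.2 in the old samples and 137 and 136 in the young samples, and Pecam1 to 186 and 245 against 178 and 164.

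A peak within 1 kb of a transcript start was present for 17 of the 36 chemokine ligand genes (47.2%), against 15151 of 20807 autosomal protein-coding genes (72.8%). Of 11 CXC genes, 9 had a start-site peak, and of 23 CC genes, 7 had one. Neighbouring genes arose by duplication and are not independent, so these shares are given without a test. The CXC genes with a start-site peak were Cxcl1, Cxcl2, Cxcl3, Cxcl5, Cxcl9, Cxcl10, Cxcl14, Cxcl16 and Cxcl17. The CC genes were Ccl1, Ccl2, Ccl7, Ccl9, Ccl25, Ccl27a and Ccl28, and Cx3cl1, the membrane-anchored CX3C ligand, had one as well. The peak nearest the coding start of Ccl1 ended 989 bases from it, and the start-site peak of Ccl28 lay at the start of another transcript, 25681 bases inside the gene. Ccl5, Ccl6, Ccl11, Ccl17 and Cxcl15 had a peak elsewhere in or upstream of the gene.

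No peak was assigned to 14 genes, which were Ccl3, Ccl4, Ccl8, Ccl12, Ccl19, Ccl20, Ccl21a, Ccl21b, Ccl22, Ccl24, Ccl26, Ccl27b, Cxcl13 and Xcl1. For some of these the nearest peak was not far away. It lay 1955 bases from the coding start of Ccl3, 2608 bases from that of Ccl20 and 3017 bases from that of Ccl4. The genes without a peak on chromosome 4, which are Ccl19, Ccl21a, Ccl21b and Ccl27b, were the most remote, with between 102608 bases to the nearest peak for Ccl21a and 473467 for Ccl21b. Ccl21a, Ccl21b, Ccl27a and Ccl27b have near-identical copies, so reads there may not be assigned with certainty.

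The 17 start-site peaks had a median of 18.5 per kb, against 23.6 per kb over 18875 autosomal start-site peaks, and 4 of the 17 lay above that median. These were the peaks of Ccl2 and Ccl7, of Ccl9, of Ccl25 and of Cxcl1. The other 36 peaks had a median of 13.9 per kb, against 12.6 per kb for autosomal peaks away from start sites.

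**Figure D1:**
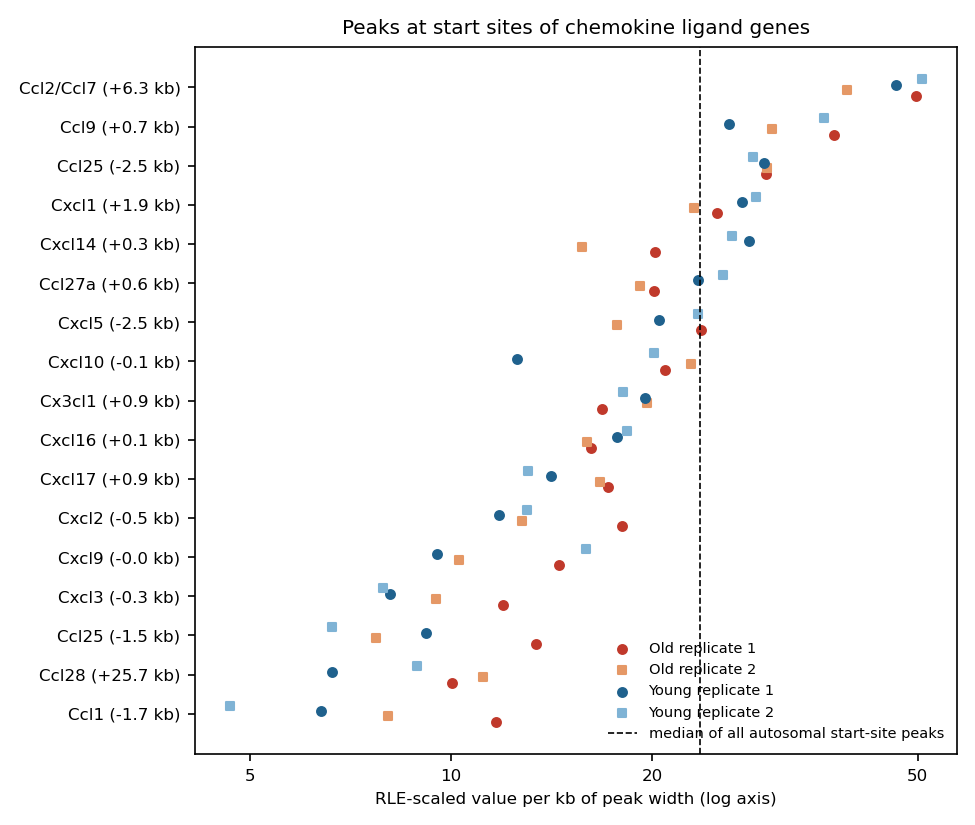
RLE-scaled values per kb of the 17 start-site peaks of chemokine ligand genes (log axis), with 1 point for each of the 4 samples. Labels give the gene and the distance of the peak centre from its nearest coding start, and the dashed line marks the median of 18875 autosomal start-site peaks, 23.6 per kb.

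The comparison of old with young MSCs asked which of these sites differ in accessibility with age. None of the 53 peaks passed the limma test at an adjusted p under 0.01 (Benjamini-Hochberg over all peaks). There were 0 lower in old MSCs, against a background of 0.0307% of all peaks, and 0 higher, against 0.0256%. At an adjusted p under 0.05 there were also 0 peaks in either direction, where the background was 0.771% lower and 0.351% higher. At an unadjusted p under 0.05 there were 3 lower peaks (background 8.87%) and 4 higher peaks (background 7.49%), or 7 in all (background 16.4%). The lowest adjusted p among the 53 peaks was 0.086. Without old replicate 1, where the lone old sample is assumed to vary like the young ones, limma called 2 of them lower (background 5.45%) and 1 higher (background 3.35%). These were the peak of Ccl2 and Ccl7 (log2 fold change -0.31), the start-site peak of Cxcl14 (-0.77) and the intronic peak of Ccl5 (1.81). In bulk samples such as these, a change in the mix of cells and a change in accessibility per cell cannot be told apart. Their median log2 fold change (old against young) was 0.02, and 0.0011 over all peaks. The mean was lower in old MSCs at 25 of the 53, or 47.2%, against a background of 49.9%. The old values were both below the young values at 10 peaks (background 24.2%) and above them at 16 (background 23.2%), and the groups overlapped at 27.

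On the values as deposited, which carry the difference in the share of counts inside peaks, the members followed the typical peak of the list. Their median log2 fold change was -0.27, the same as the -0.27 over all peaks, and 35 of 53 had a lower mean in old MSCs, which is 66.0% against a background of 74.6%. The old values were both below the young values at 24 peaks (background 43.5%) and above them at 6 (background 7.56%). At an adjusted p under 0.01 limma called 0 lower (background 1.14%) and 0 higher (background 0.0443%) on this scale, and at 0.05 it called 2 lower (background 4.22%), both of Cxcl14, and 0 higher (background 0.214%). At an unadjusted p under 0.05 there were 9 lower (background 18.5%) and 1 higher (background 1.70%). The upstream peaks of Ccl5, Cxcl2 and Cxcl10, the start-site peak of Ccl9 and the Ccl25 peak shared with Elavl1 had a fold change above 0 after RLE scaling and below 0 as deposited.

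**Figure D2:**
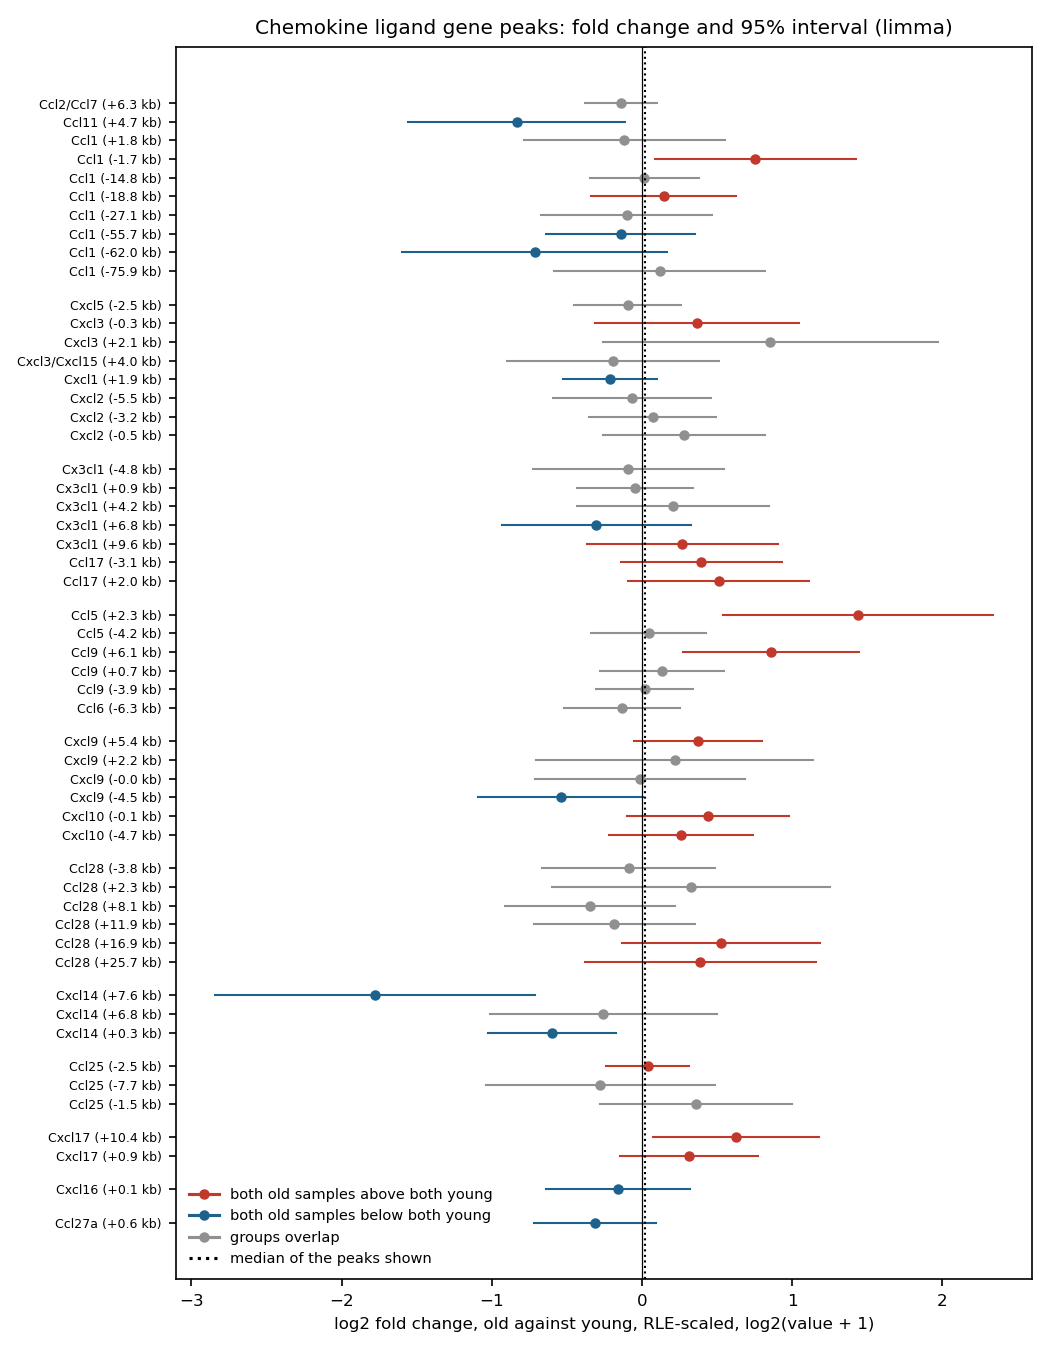
Log2 fold change of each of the 53 peaks, old against young, on RLE-scaled log2(value + 1), with its 95% interval from limma. Peaks are grouped by cluster or lone gene and coloured by whether the 2 old samples both lie above or below the 2 young samples, and the dotted line marks the median of 0.02.

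The Ccl2 to Ccl1 cluster on chromosome 11 held 39.3% of the summed signal of the 53 peaks. Most of it came from a single peak of 20600 bases (chr11:82031601-82052200) that covered both Ccl2, the main monocyte attractant, and Ccl7, a ligand of several CC receptors, and also touched the start of Gm17268. Its RLE-scaled value was 1025 and 807 in old replicates 1 and 2, and 957 and 1047 in young replicates 1 and 2. The groups overlapped, since old replicate 1 lay between the young samples and only old replicate 2 lay below them. The log2 fold change was -0.14 (SE 0.11, limma adjusted p = 0.582). After subtraction of the median of chromosome 11 it was 0.01 in old replicate 1 and -0.50 in old replicate 2.

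Ccl11, the eosinophil attractant eotaxin, had 1 peak in its last coding part (chr11:82062101-82062900). Its RLE-scaled values were 4.73 and 7.01 in the old samples and 8.96 and 13.7 in the young samples. The old samples were the 2 lowest, with a log2 fold change of -0.83 (SE 0.34, limma adjusted p = 0.237). It rests on 11 and 23 counts against 27 and 46.

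Ccl1, a ligand for Ccr8 made by activated T cells, had 8 peaks, because a long transcript model extends the gene far upstream. The peak near its coding start (chr11:82180801-82182200) had RLE-scaled values of 16.4 and 11.3 in the old samples and 8.96 and 6.53 in the young samples. The groups did not overlap, old being the higher, and the log2 fold change was 0.75 (SE 0.32, limma adjusted p = 0.247). An intronic peak of the long model, centred at -62038 bases from the coding start (chr11:82241601-82242100), went the other way, with RLE-scaled values of 3.44, 2.13, 3.98 and 6.53 in the same order of samples and a log2 fold change of -0.71 (SE 0.42, limma adjusted p = 0.416). The 2 peaks thus had opposite signs within a single gene model. Ccl8 and Ccl12, neighbours of Ccl11 in the cluster, had no peak.

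The Ccl5 to Ccl4 cluster held the peak with the highest value per kb of all 53, at 57.6 per kb, upstream of Ccl5 (chr11:83534001-83535500). Ccl5 encodes RANTES, an attractant of T cells and monocytes. The RLE-scaled values of that peak were 80.5 and 95.1 in the old samples and 79.0 and 91.1 in the young samples, so the groups overlapped. The log2 fold change was 0.04 (SE 0.18, limma adjusted p = 0.932).

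A small intronic peak of Ccl5 (chr11:83528001-83528500) had the largest positive fold change among the members. It had 11 and 28 counts in the old samples and 6 and 5 in the young samples, or RLE-scaled values of 4.73, 8.54, 1.99 and 1.48. The old values were the 2 highest, and the log2 fold change was 1.44 (SE 0.43, 95% interval 0.54 to 2.34, limma adjusted p = 0.098). Less the median of chromosome 11 it was 1.05 in old replicate 1 and 1.62 in old replicate 2. Ccl5 thus had an upstream peak without a detectable difference and a weak intronic peak with a larger ratio that did not pass the threshold.

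Ccl9, a macrophage inflammatory ligand of rodents, had 3 peaks. At its start site (chr11:83576501-83579300) the RLE-scaled values were 105 and 84.8 in the old samples and 73.0 and 101 in the young samples, which overlapped (log2 fold change 0.13, SE 0.20, limma adjusted p = 0.786). At the untranslated last exon (chr11:83571901-83573200) they were 19.4 and 23.2 against 9.62 and 13.1. The old samples were again the 2 highest there, with a log2 fold change of 0.86 (SE 0.28, limma adjusted p = 0.128). The single peak of Ccl6 lay upstream of the gene, and its fold change was within the range of the peaks not named. Ccl3 and Ccl4, which encode macrophage inflammatory proteins, had no peak.

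**Figure D3:**
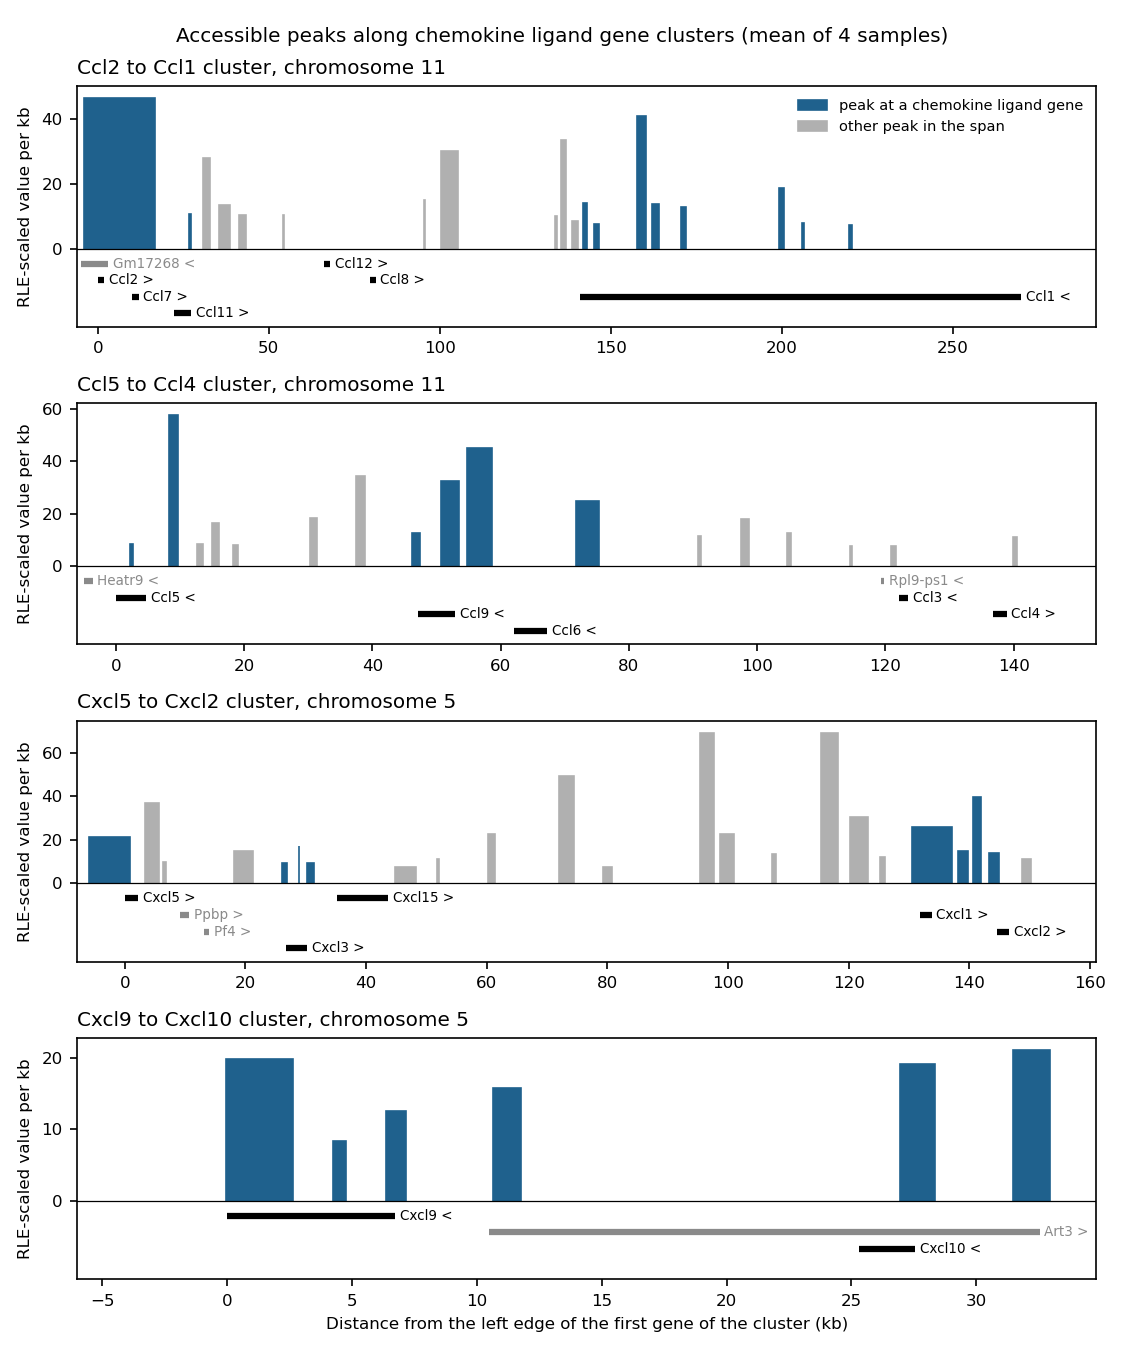
Peaks along 4 clusters by distance from the left edge of the first gene (kb), with bar height the mean RLE-scaled value per kb over 4 samples. Blue bars are peaks assigned to a chemokine ligand gene, grey bars are other peaks, and lines below mark genes with their direction of transcription. The Ccl2 and Ccl7 genes share a peak of 20600 bases, and Ccl3 and Ccl4 have none assigned.

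The Cxcl5 to Cxcl2 cluster on chromosome 5 encodes mainly ligands of the neutrophil receptor Cxcr2, and all of its 5 member genes had a peak. Counting all peaks, assigned to a member gene or not, it had the largest share of its span in peaks, at 30.2%. The share was 25.1% for Ccl22 to Ccl17, 20.2% for Cxcl9 to Cxcl10 and 17.8% for Ccl2 to Ccl1. It was 15.5% for Ccl5 to Ccl4, 5.75% for Ccl26 to Ccl24 and 0.375% for Ccl27a to Ccl21a. In the Cxcl5 to Cxcl2 span, 15 of 23 peaks were not assigned to a member gene. The strongest of these had 69.1 per kb, above the 39.6 per kb of the strongest member peak. Its member peaks held 20.3 kb in a span of 156.6 kb. That is a smaller share than 11.4 in 76.4 kb for Ccl22 to Ccl17 and 8 in 37.5 kb for Cxcl9 to Cxcl10. The peak over Cxcl1 (chr5:90889801-90896400) had RLE-scaled values of 165 and 152 in the old samples and 180 and 189 in the young samples. The old values were the 2 lowest, by less than the limma test could separate (log2 fold change -0.21, SE 0.15, adjusted p = 0.503).

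The peak at Cxcl5 (chr5:90753501-90760300) had RLE-scaled values of 161, 121, 139 and 159.7 in the order old 1, old 2, young 1 and young 2. Here the groups overlapped, and the log2 fold change was -0.09 (SE 0.17, limma adjusted p = 0.830). At the start of Cxcl2 (chr5:90902601-90904200) the RLE-scaled values were 28.8, 20.4, 18.9 and 20.8, also overlapping (log2 fold change 0.28, SE 0.26, limma adjusted p = 0.631). A stronger peak upstream of Cxcl2 (chr5:90900001-90901300, 39.6 per kb) had values of 55.9, 49.7, 48.1 and 52.2 and a log2 fold change of 0.07 (SE 0.20, limma adjusted p = 0.898). Its groups overlapped as well.

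The start of Cxcl3 (chr5:90785401-90786300) was among the weakest of the start sites, at 9.37 per kb. Its RLE-scaled values were 10.8 and 8.54 in the old samples and 7.30 and 7.12 in the young samples, with old above young and no overlap (log2 fold change 0.37, SE 0.32, limma adjusted p = 0.613). An intronic peak of Cxcl3 of 100 bases (chr5:90788201-90788300) had 9 and 4 counts in the old samples and 1 and 5 in the young samples. These overlapped, and the log2 fold change was 0.85 (SE 0.53, limma adjusted p = 0.447). The 3 promoters with the identical NF-kB match, those of Cxcl1, Cxcl2 and Cxcl3, thus had start-site fold changes of either sign, and none passed the test.

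The Cxcl9 to Cxcl10 cluster, on the same chromosome, encodes interferon-inducible ligands of Cxcr3. At the start of Cxcl10 (chr5:92348301-92349700), where the interferon-type and NF-kB matches stand, the RLE-scaled values were 29.3 and 32.0 in the old samples and 17.6 and 28.2 in the young samples. Old replicate 1 was close to young replicate 2, but the groups did not overlap, and the log2 fold change was 0.44 (SE 0.26, limma adjusted p = 0.414). The strongest peak of the cluster per kb (21.1 per kb) lay upstream of Cxcl10 (chr5:92352801-92354300) and had values of 31.8, 37.2, 30.9 and 26.4, again with old above young and no overlap (log2 fold change 0.26, SE 0.23, limma adjusted p = 0.611). At the start of Cxcl9 (chr5:92327701-92328500) the values were 11.6, 8.23, 7.63 and 12.8. That peak had a log2 fold change of -0.01 (SE 0.33, limma adjusted p = 0.990), and its groups overlapped.

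On chromosome 8, Cx3cl1, known as fractalkine, had 5 peaks and its neighbour Ccl17, a ligand of Ccr4, had 2. The start-site peak of Cx3cl1 (chr8:94771001-94775300) had RLE-scaled values of 72.3 and 84.5 in the old samples and 83.9 and 77.8 in the young samples. They overlapped, with a log2 fold change of -0.05 (SE 0.18, limma adjusted p = 0.928). The strongest per kb of the peaks assigned to genes of this cluster (18.8 per kb), upstream of Cx3cl1 (chr8:94766901-94767600), had values of 14.6, 10.7, 16.3 and 10.98 and a log2 fold change of -0.09 (SE 0.30, limma adjusted p = 0.916). Those groups overlapped too. Ccl22, the other Ccr4 ligand next to them, had no peak.

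The lowest fold change of all member peaks was at the 3′ end of a lone gene, Cxcl14. The next lowest, at Ccl11 (-0.83) and Ccl1 (-0.71), and the highest were at genes of clusters. At the start of Cxcl14 (chr13:56294701-56297300) the RLE-scaled values were 52.5 and 40.9 in the old samples and 72.6 and 68.6 in the young samples. Each old value was below each young value, with a log2 fold change of -0.60 (SE 0.20, 95% interval -1.02 to -0.17, limma adjusted p = 0.146). On the values as deposited it was -0.88 (limma adjusted p = 0.048).

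A peak of 200 bases at the 3′ end of Cxcl14 (chr13:56288601-56288800) had 0 and 1 counts in the old samples and 12 and 7 in the young samples. The log2 fold change was -1.78 (SE 0.51, limma adjusted p = 0.086), and -1.88 as deposited (limma adjusted p = 0.031). At such low counts the fitted value depends on the pseudocount, and over the alternatives it lay between -3.89 and -0.63. The ratio of young to old by counts was 20.1, with an exact 95% interval of 3.20 to 837 that covers counting error only. This peak directly adjoined another peak of Cxcl14, whose RLE-scaled values overlapped between the groups.

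Cxcl17, a mucosal chemokine, had both of its peaks higher in each old sample than in each young sample. At its start (chr7:25410801-25413100) the RLE-scaled values were 39.6 and 38.4 in the old samples and 32.5 and 30.0 in the young samples (log2 fold change 0.31, SE 0.22, limma adjusted p = 0.509). Cxcl16, a membrane-anchored ligand of Cxcr6 whose peak (chr11:70459001-70460700) also covers the start of Zmynd15, had values of 27.5 and 27.1 against 30.2 and 31.2. The groups stood apart with old the lower, at a log2 fold change of -0.16 (SE 0.23, limma adjusted p = 0.778), and -0.26 for the gene's log2 ratio less the median of chromosome 11.

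Ccl25, the thymic and gut ligand of Ccr9, had a peak of 9200 bases at its distal start (chr8:4318101-4327300) that also covers the start of Elavl1. Its RLE-scaled values were 272.8, 273.2, 271.0 and 260.9, which was the smallest ratio of highest to lowest value among the 17 start-site peaks (log2 fold change 0.04, SE 0.13, limma adjusted p = 0.918). A second start-site peak of Ccl25 (chr8:4347201-4348900) had values of 22.8, 13.1, 15.6 and 11.3 and overlapped between the groups (log2 fold change 0.36, SE 0.31, limma adjusted p = 0.596).

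Ccl28, an epithelial ligand, had 6 peaks. The strongest per kb (chr13:119631501-119632400, 35.8 per kb) was intronic, with RLE-scaled values of 37.9, 20.1, 32.2 and 38.9. Old replicate 2 stood below the other samples there, so the groups overlapped (log2 fold change -0.34, SE 0.27, limma adjusted p = 0.563). Its start-site peak (chr13:119649201-119649800) had values of 6.02, 6.71, 3.98 and 5.34 and a log2 fold change of 0.39 (SE 0.37, limma adjusted p = 0.642).

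Ccl27a, a skin-homing ligand of Ccr10, held the only member peak of the chromosome 4 cluster (chr4:41772101-41774900). Its RLE-scaled values were 56.4 and 53.7 in the old samples and 65.7 and 71.5 in the young samples. Old was below young without overlap, and the log2 fold change was -0.31 (SE 0.19, limma adjusted p = 0.442). The 25 peaks not named by the rule had log2 fold changes between -0.54 and 0.63, and the lowest limma adjusted p among them was 0.245.

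The clusters were then compared by the sum of their member peaks in each sample. Peaks of a span that were not assigned to a member gene are left out of these sums. With 2 samples against 2, an exact permutation test cannot give a p below 0.33. The Ccl2 to Ccl1 cluster summed to 1232 and 1032 in the old samples and 1175 and 1265 in the young samples, with a log2 ratio of old to young of -0.11 (two-sided exact permutation p = 0.67). It was -0.01 without the peak over Ccl2 and Ccl7, and -0.21 less the median of chromosome 11. The Ccl5 to Ccl4 cluster summed to 441 and 501 against 423 and 477 (log2 ratio 0.07, exact permutation p = 0.67), and -0.03 less the chromosome's median. In both of these clusters on chromosome 11 the groups overlapped.

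The Cxcl5 to Cxcl2 cluster summed to 460.0 and 391.6 in the old samples and 429 and 472 in the young samples (log2 ratio -0.08, exact permutation p = 0.67). The Ccl22 to Ccl17 cluster summed to 158 and 188 against 162 and 161 (log2 ratio 0.10, exact permutation p = 1). The groups overlapped in these as well. The Cxcl9 to Cxcl10 cluster summed to 145 and 164 in the old samples and 128 and 137 in the young samples, so that the groups stood apart with old the higher (log2 ratio 0.22, exact permutation p = 0.33).

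The sign of 3 of these ratios depended on the scaling. As deposited they were -0.05 for the Cxcl9 to Cxcl10 cluster, -0.21 for Ccl5 to Ccl4 and -0.17 for Ccl22 to Ccl17, and in each of them the groups overlapped. The chromosome 4 cluster, with its single peak, had a log2 ratio of -0.32 (exact permutation p = 0.33), the lowest of the 6 clusters. Of the lone genes, Cxcl14 summed to a log2 ratio of -0.58 and Cxcl17 to 0.43. In each of them the groups did not overlap (exact permutation p = 0.33). Ccl28, Cxcl16 and Ccl25 summed to -0.05, -0.17 and 0.05. As deposited the log2 ratios were -0.88 for Cxcl14, 0.15 for Cxcl17, -0.37 for Ccl28, -0.45 for Cxcl16 and -0.23 for Ccl25. The groups of Cxcl17 then overlapped, and Ccl25 changed sign with old below young.

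Ratios between 2 clusters do not depend on a scaling factor applied to a whole sample. Among the 15 pairs of clusters, the old and young samples stood apart in 10, each at an exact permutation p of 0.33, the smallest the design allows. That p is also the share of sample labellings that would set any 1 pair apart. The pairs share clusters and are not independent. All of the 10 but 1 involved the single peak of the Ccl27a to Ccl21a cluster or the Cxcl9 to Cxcl10 cluster. The exception, Ccl2 to Ccl1 against Cxcl5 to Cxcl2, differed by -0.03. The largest difference was that of the Ccl27a to Ccl21a cluster against the Cxcl9 to Cxcl10 cluster, whose log2 ratio was -1.49 in old and -0.95 in young MSCs, a difference of -0.54. The Cxcl5 to Cxcl2 cluster against the Cxcl9 to Cxcl10 cluster, both on chromosome 5, was 1.46 in old and 1.77 in young MSCs, a difference of -0.30. The ratio of the Ccl5 to Ccl4 cluster to the Cxcl5 to Cxcl2 cluster differed by 0.15, and there the samples overlapped.

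**Figure D4:**
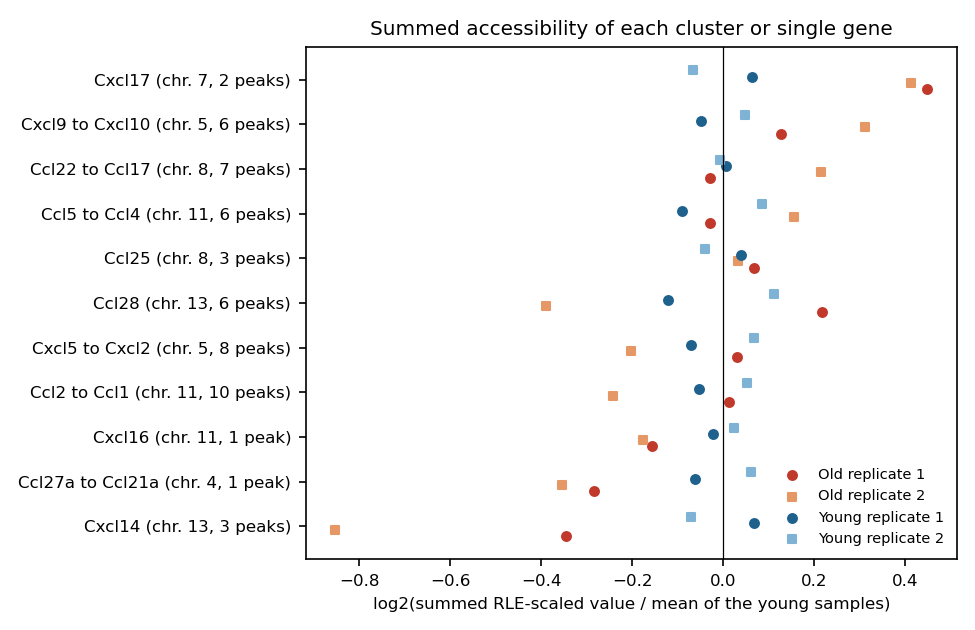
Summed RLE-scaled value of each cluster's or lone gene's member peaks in each of the 4 samples, as log2 of its ratio to the mean of the young samples. Both old samples lie right of both young samples for Cxcl17 and the Cxcl9 to Cxcl10 cluster and left of them for Cxcl14, Cxcl16 and the Ccl27a to Ccl21a cluster.

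Receptors and other genes of the chemokine system were read from the same fit. Of 19 receptor genes, 14 had a peak and 8 a start-site peak, and 0 of their 54 peaks passed limma at an adjusted p under 0.01 in either direction, beside the backgrounds of 0.0307% and 0.0256%. At an unadjusted p under 0.05 there were 2 lower peaks (background 8.87%) and 2 higher peaks (background 7.49%) among them. The lowest limma adjusted p, 0.044, was at 1 of 25 peaks of Cx3cr1, the receptor of Cx3cl1, with a log2 fold change of -2.05. This was the extreme of the 25, which ranged up to 0.61 around a median of -0.02. Summed over them, Cx3cr1 had RLE-scaled values of 1649 and 1488 in the old samples and 1757 and 1675 in the young samples. Old was thus the lower without overlap, but the log2 ratio of these sums was only -0.13. Of 5 atypical receptors, which scavenge chemokines without classical signalling, 4 had a peak, and 0 of their 14 peaks passed the limma test in either direction, with 1 lower (background 8.87%) and 0 higher (background 7.49%) at an unadjusted p under 0.05. The ligand genes outside the rule were Cxcl12, Pf4 and Ppbp. Cxcl12, the niche factor that retains haematopoietic stem cells, had RLE-scaled values of 372 and 457 in the old samples and 386 and 357 in the young samples, which overlapped (log2 fold change 0.15, limma adjusted p = 0.601).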

How the data were processed

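ATAC-seq values of 2 old and 2 young bone MSC samples were analysed at 117282 peaks. The authors deposited 1 value per peak and sample, a score that they called RPKM and that amounts to counts times a constant of each sample. This was read from the values, since in every sample 100% of them were whole multiples of a single step that did not vary with peak width. That the constant scales to a library total of 10000000 was assumed. Per the labels, the authors used mm10, Bowtie2 and Picard. The paper's methods, written for the oxygen comparison, name chromstaR for peaks. Of the peaks on chromosomes of GRCm38.p6, 0 ended beyond them.

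Values were divided by RLE factors (0.813, 1.01, 1.07 and 1.15 for old 1, old 2, young 1 and young 2) and tested as log2(value + 1), old minus young, with limma 3.58.1 in R 4.3.3 (eBayes with trend and robust moderation) and Benjamini-Hochberg adjustment over all peaks. Fold changes on this scale understate those of low peaks. A peak of 3 counts had a deposited value between 0.921 and 1.06. Genes came from GENCODE vM21 and promoter windows from RefSeq (GRCm38.p6). Clusters were chains of gene starts less than 500 kb apart. Member sums were compared with exact permutation tests over samples. Python 3.11.15, numpy 2.4.6, pandas 2.3.3, scipy 1.17.1 and matplotlib 3.10.9 were used.

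Named are every start-site peak and the strongest member peak per kb of each cluster or lone gene. Also named are the 3 largest fold changes in each direction and every called peak. The other peaks are given by counts and ranges, apart from those mentioned beside Cxcl14, Cxcl17 and Ccl6, which were chosen after their values were seen. Members, lists and tests were chosen with earlier results of these data known. On simulated counts for 117282 peaks, 200 of them changed, limma found 92% of the changes of log2 size 2 and 17% of those of size 1, with 0 false calls. The changed peaks were drawn only from peaks above a minimum mean value, and all samples were given the same dispersion. In the data, the SD of the log2 difference over the members was 0.51 between the old samples and 0.34 between the young samples. The rates therefore need not hold for the members, least of all for those of few counts. Replicate numbers come from the labels, and no source says that old and young samples of the same number were handled together. The alternatives were values as deposited, quantile and equal-total scaling, a pseudocount of 0.1 or 5, autosomal peaks only, removal of peaks under the lower quartile, eBayes without trend, limma-voom on recovered counts, replicate blocks, other upstream limits and start-site distances, and leaving out each sample.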

Additional observations from a re-analysis of the deposited data

How the results depend on the processing

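With 2 samples per group, limma missed most simulated differences of log2 size 1. The simulation changed no peaks of low mean value, so the detection rate for peaks of few counts is not known. The count of called members was 0 lower and 0 higher in old MSCs under every alternative but 1. Without old replicate 1 it was 2 lower (the peak of Ccl2 and Ccl7, and the start of Cxcl14) and 1 higher (the intronic peak of Ccl5), where the lone old sample is assumed to vary like the young ones and the background over all peaks was 5.45% lower and 3.35% higher. Leaving out each replicate gave 0 to 2 lower and 0 to 1 higher.

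The labels share replicate numbers. Over all peaks, the deviations of same-numbered samples from their group means correlated at -0.0993. With 2 samples per group this does not settle whether the numbers pair the samples. With a replicate block, limma called 0 members lower and 0 higher, against 907 and 362 over all peaks (36 and 30 without it), and 2197 and 1022 with the crossed block, which was chosen after seeing the data.

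The median log2 fold change of the members, -0.27 as deposited, was 0.017 with RLE scaling, 0.064 with quantile normalization and 0.086 at equal total signal, and -0.33 to -0.09 leaving out a replicate. The percentage lower in old MSCs, 66.0 as deposited, was 47.2, 47.2 and 43.4 under those scalings, 52.8 less the chromosome's median, and 60.4 to 81.1 leaving out a replicate, the highest without old replicate 2. As deposited, the log2 ratios were -0.41 for the Ccl2 to Ccl1 cluster, -0.21 for Ccl5 to Ccl4, -0.61 for Ccl27a to Ccl21a, -0.38 for Cxcl5 to Cxcl2, -0.052 for Cxcl9 to Cxcl10 and -0.17 for Ccl22 to Ccl17. Leaving out a replicate they ranged from -0.24 to 0.01, from -0.03 to 0.16, from -0.38 to -0.26, from -0.20 to 0.03, from 0.13 to 0.31 and from -0.03 to 0.22. Of the 28 named peaks, 5 changed sign as deposited, 2 at equal total signal and between 2 and 6 without a replicate. The further alternatives, without the peaks in the long Ccl1 model and with coding transcripts alone, were also chosen after seeing the data. They gave a median of -0.25 and 16 genes with a start-site peak.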
